A study of Mus musculus with 6 samples.

Results

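The 48 genes described here encode proteins that carry a cell through mitosis. They were chosen by symbol from the deposited table of 56691 genes and comprise 4 transcription factors and proliferation antigens, 6 mitotic cyclins and their kinase and phosphatases, 3 Polo and Aurora kinases, 4 spindle checkpoint genes, 3 chromosomal passenger subunits, 7 kinetochore and centromere genes, 8 kinesins, 4 other spindle proteins, 3 cytokinesis genes, 4 genes of anaphase onset and 2 condensin subunits. All 48 symbols were found, and all 48 genes passed the filter on low counts that left 15987 genes for testing. The genes lie on 16 chromosomes, with 10 of them on chromosome 2, and have exonic lengths of 1531 to 15433 bases.

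Gene expression had been measured by bulk RNA sequencing of primary hepatic stellate cells of wild-type mouse liver, in 3 groups of 2 libraries each: cells that received both TGF-beta and K-80003 (labelled TGF-beta-K-80003, the K-80003 group below), cells given TGF-beta alone (TGF-beta), and untreated cells (Control). Hepatic stellate cells are pericytes that store vitamin A and turn into collagen-producing myofibroblasts in fibrosis, and TGF-beta is the classical signal used to drive that change in culture. The sources used here give no dose, treatment time, age or number of animals, and no library of K-80003 without TGF-beta was analysed here. The labels do not say that the 2 libraries of a group came from separate animals or cultures, so the p-values below measure only the spread between these libraries.

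Entry into mitosis is set off when CDK1, bound to cyclin A or B, is activated by CDC25 phosphatases and amplified by the Polo and Aurora kinases. The NDC80 complex of the kinetochore then attaches chromosomes to spindle microtubules, and the checkpoint proteins hold back CDC20 until all are attached. CDC20 next turns on the anaphase-promoting complex, which destroys cyclin B and securin, and the cell divides through the central spindle and the contractile ring. Most of these genes are transcribed late in the cell cycle, so their summed RNA is widely read as a mark of how many cells in a culture are cycling. In quiescent liver stellate cells divide little, and proliferation is one of the recognised features of their activation.

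Levels below are counts per library in CPM after TMM scaling, in which each library is put on a common total; they compare libraries for a gene, not genes with each other. Summed counts per library were between 15646093 and 19004144, and the lowest count of any of the 48 genes in any library was 8, for Spc24 in K-80003 replicate 2. Stellate cell markers were present in every group (14 of 14 tested), among them Dcn at 1703 and 1822 CPM in the K-80003 libraries, 4471 and 3841 CPM in the TGF-beta libraries and 4262 and 4655 CPM in the Control libraries. The 9 lymphocyte and neutrophil markers summed to between 0.313 and 1.05 CPM, with Ly6g at 0 throughout. Within each group, the 2 libraries differed along gene length, and the direction did not follow the replicate number. The correlation over the 48 genes between log2 exonic length and the difference replicate 1 minus replicate 2 was 0.313 in the K-80003 group, -0.546 in the TGF-beta group and 0.628 in Control, where all 48 points share the same 2 libraries. The same correlation over all 15987 genes was 0.251, -0.281 and 0.347 in that order. The trend thus had the same sign in the K-80003 and Control groups and the opposite sign in TGF-beta. The long genes Mki67 and Cenpf followed it in all 3 groups. No label names kinds of library. Between exonic length and the log2 fold change of the K-80003 group against TGF-beta, Spearman's rho over the 48 genes was -0.0883, where all points share the same 4 libraries.

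**Figure D1:**
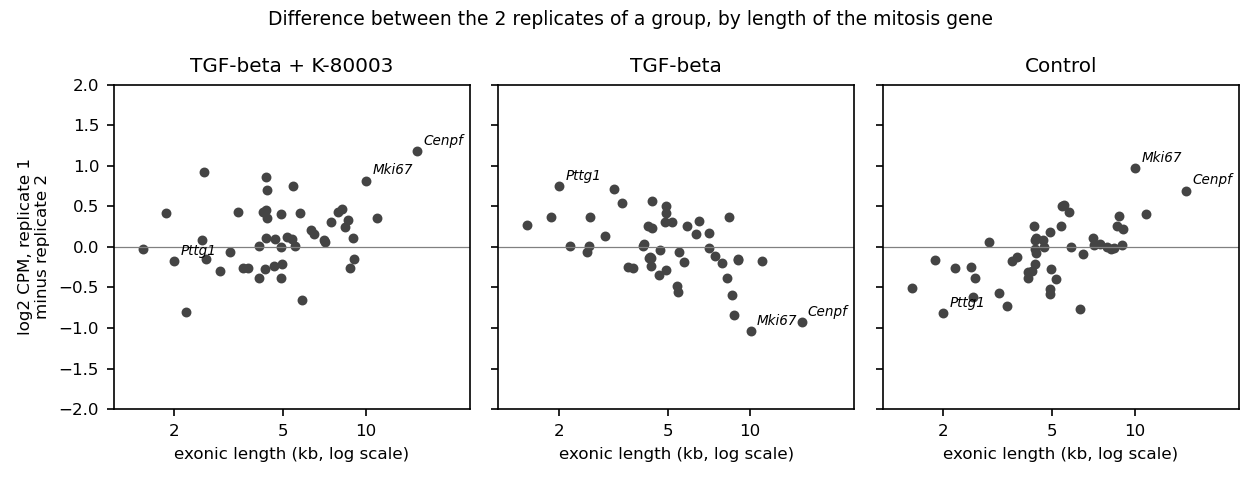
Difference between the 2 replicates of a group (log2 CPM, replicate 1 minus replicate 2) against exonic length (kb, log scale), with 1 point for each of the 48 mitosis genes and 1 panel for each group. Long genes such as Cenpf and Mki67 lie above 0 in the K-80003 and Control panels and below 0 in the TGF-beta panel; from left to right, the correlations with log2 length are 0.313, -0.546 and 0.628.

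The 48 genes were far lower in the K-80003 group than in the other groups. Together they took 0.0256% and 0.0252% of all counts in the K-80003 libraries, 0.0878% and 0.0878% in the TGF-beta libraries and 0.115% and 0.118% in the Control libraries. Their summed level was 255.0 and 242.6 CPM in the K-80003 libraries, 910.4 and 942.9 CPM in the TGF-beta libraries and 1130 and 1133 CPM in the Control libraries. The 3 groups did not overlap in this sum, and the K-80003 libraries stood furthest apart. In bulk RNA, fewer cells of a type and less RNA per cell cannot be told apart.

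Against TGF-beta alone, 43 of the 48 genes were lower in the K-80003 group and 0 were higher by edgeR's quasi-likelihood test with Benjamini-Hochberg adjustment over all 15987 genes, at an adjusted p under 0.05. Of all genes tested, 7.32% were called lower and 2.78% higher in this comparison. All 48 log2 fold changes were negative, with a median of -2.29 (4.90-fold lower) and an interquartile range of -2.55 to -1.72, while the median over all genes tested was 0.01. At least 4-fold lower values were found for 31 of the 48 genes and for 3.15% of all genes. In 47 of the 48 genes both K-80003 libraries lay below both TGF-beta libraries, which held for 26.8% of all genes. The genes not called were Bub1b, Cdc25b, Incenp, Mybl2 and Pttg1.

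The call rested in part on having both K-80003 libraries. The share of all genes called in the fits that left out 1 library is not given here. A loss of calls over all genes and a loss particular to the 48 thus cannot be told apart. Without K-80003 replicate 2 the same test called 28 of the 48 genes lower, and without K-80003 replicate 1 it called 34; the median log2 fold change was -2.25 and -2.27 in these fits. Called in every fit that left out 1 library were 28 genes, and the largest adjusted p of the other 15 in such a fit lay between 0.0513 for Kif23 and 0.179 for Kif22. Those 15 were Mki67, Foxm1, Cdc25c, Aurka, Mad2l1, Birc5, Cdca8, Spc24, Spc25, Cenpf, Kif15, Kif22, Kif23, Espl1 and Ncaph.

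Against Control, 47 of the 48 genes were lower in the K-80003 group and 0 were higher by the same test, beside 11.7% of all genes called lower and 5.54% called higher. The median log2 fold change was -2.53 (5.76-fold lower), and Mki67, the gene of the Ki-67 antigen, had the steepest value at -3.26. The gene not called was Pttg1. This comparison and the preceding one share the K-80003 libraries. When 1 library was left out, 36 of the 48 genes were called in every fit. The largest adjusted p of the other 11 that were called in the full fit lay between 0.0549 for Mki67 and 0.112 for Mybl2 and for Incenp, and these 11 were completed by Cdc25b, Cdc25c, Aurka, Bub1b, Mad2l1, Spc25, Cenpf and Kif22.

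Of the 48 genes, 0 were called in TGF-beta against Control by edgeR's quasi-likelihood test, where 2.94% of all genes were called. Unadjusted p-values under 0.05 were found for 6 of the 48 genes and for 14.7% of all genes. Values were lower in TGF-beta for 45 of the 48 genes and for 48.7% of all genes tested. The median log2 fold change was -0.30 for the 48 genes and 0.01 for all genes tested. Both TGF-beta libraries lay below both Control libraries for 25 genes (19.8% of all genes) and above them for 2 (18.5% of all genes). The most negative values were those of Mybl2 at -0.89 ± 0.23 (SE, adjusted p = 0.122) and Kif23 at -0.88 ± 0.20 (adjusted p = 0.0831). Kif23 was called lower by DESeq2 and by limma on log2(FPKM + 1), each of which called 1 of the 48 genes, edgeR without scaling beyond the library total also called Kif23, and edgeR without the filter on low counts called Kif23 and Mki67. A block that crossed the 2 TGF-beta replicate numbers called 14 of the 48 genes, all lower in TGF-beta. It was chosen after seeing the replicate differences in these same counts, so its calls are a description and not a test. The share of all genes that it called is not given here.

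**Figure D2:**
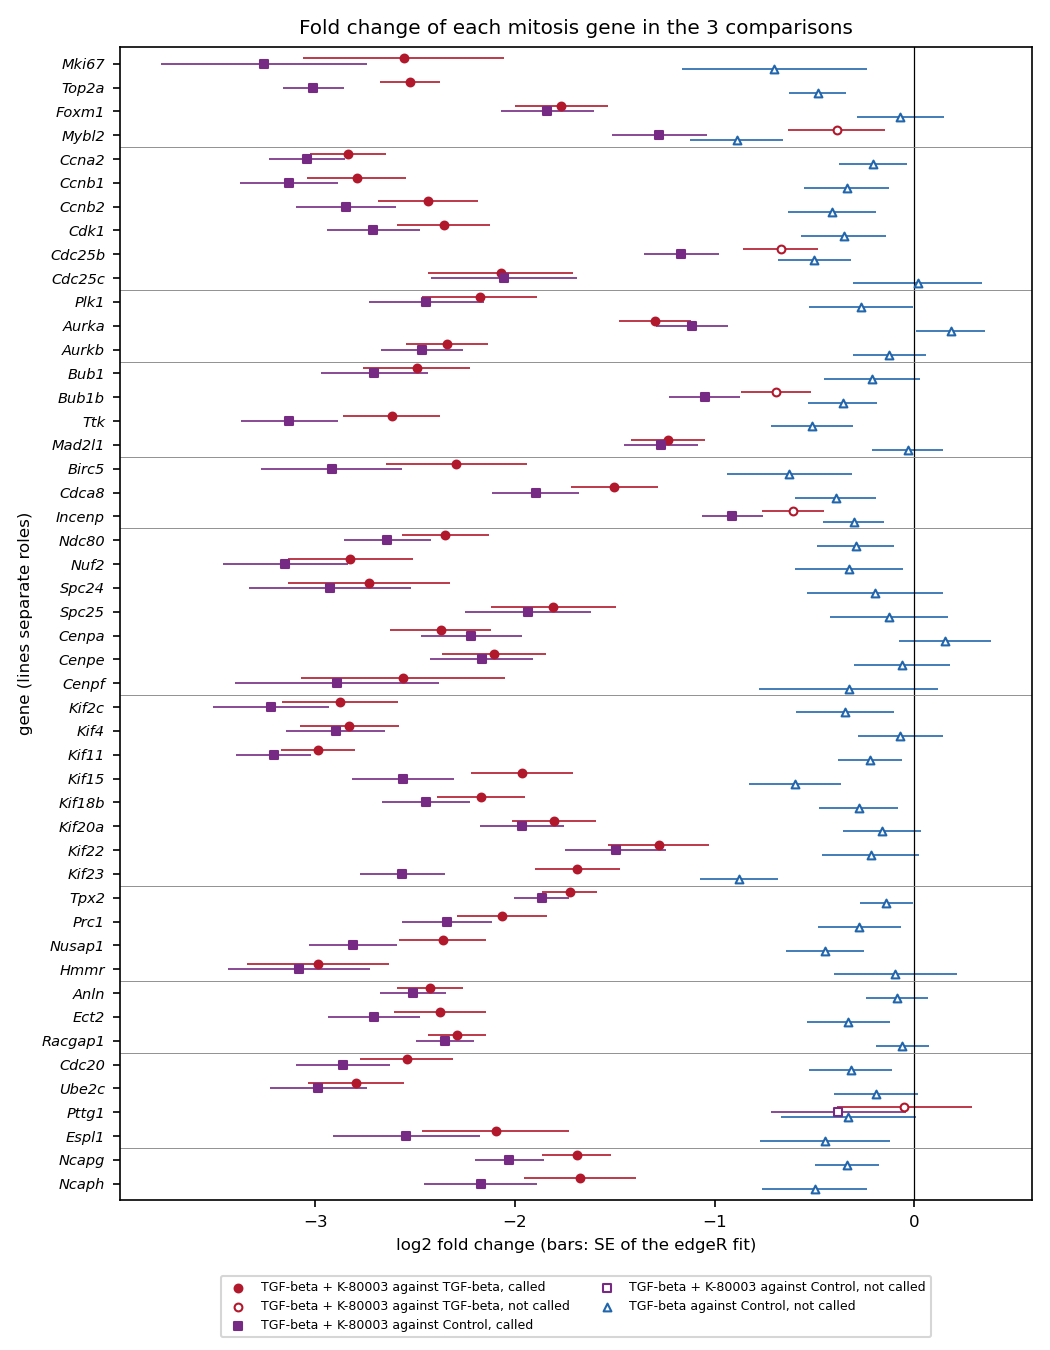
Log2 fold change of each of the 48 mitosis genes (x axis; bars are the SE of the edgeR fit) in the K-80003 group against TGF-beta, the K-80003 group against Control and TGF-beta against Control, ordered by role, with filled symbols for genes called at an adjusted p under 0.05. The first 2 comparisons lie mostly between -3 and -1, the values of TGF-beta against Control lie between -0.89 and 0.18 with open symbols, and Pttg1, Mybl2, Incenp, Cdc25b and Bub1b lie nearest to 0 in the K-80003 group against TGF-beta.

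Promoters of genes expressed in the G2 and M phases of the cell cycle often carry the cell cycle genes homology region (CHR), which the MuvB core binds as part of the repressive DREAM complex or, with B-MYB and FOXM1, as an activator, and CCAAT boxes bound by NF-Y. RefSeq promoters (250 bases before to 50 after the start, mouse build GRCm38.p6) were matched by symbol for 40 of the 48 genes; Aurkb, Ccna2, Cdc25c, Foxm1, Incenp, Kif20a, Spc24 and Tpx2 had no entry. The core TTTGAA of the CHR was found on either strand in 29 of the 40 genes (72.5%), against 20.2% of 27025 genes with a promoter entry and 14.3% of the 11103 genes that were also tested. The letters CCAAT were found on either strand in 72.5% of the 40 genes, against 41.1% and 42.5% of those same sets, and both motifs in 25 of the 40 (62.5%), against 7.97% and 5.86%. A match of letters is a description and not a bound site. The TTTGAA core lay only after the start in Anln, Aurka, Bub1b, Cdca8, Cenpa, Cenpf, Hmmr, Kif18b, Kif23, Kif4, Ndc80, Plk1, Racgap1, Spc25 and Ttk. The first 5 sequences below hold it before the start and so do not stand for these genes. The 150 bases before the start are shown for Cdk1, Top2a, Cdc20, Kif11 and Ube2c, which hold both motifs and have K-80003 against TGF-beta values at or beyond the median of the 48 genes, and then for Mybl2 and Pttg1, which have the 2 values nearest to 0 and neither motif. Capitals mark TTTGAA or its reverse complement TTCAAA and CCAAT or its reverse complement ATTGG; sequences are written 5′ to 3′ on the strand of the gene.
Cdk1 (chr10:69352913-69353062, minus strand): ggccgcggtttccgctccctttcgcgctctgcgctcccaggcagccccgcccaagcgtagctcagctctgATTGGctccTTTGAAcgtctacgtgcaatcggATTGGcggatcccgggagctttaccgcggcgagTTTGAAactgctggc
Top2a (chr11:99024190-99024339, minus strand): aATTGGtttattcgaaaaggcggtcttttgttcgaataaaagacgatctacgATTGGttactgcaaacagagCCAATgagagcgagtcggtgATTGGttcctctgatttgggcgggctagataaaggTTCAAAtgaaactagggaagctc
Cdc20 (chr4:118437344-118437493, minus strand): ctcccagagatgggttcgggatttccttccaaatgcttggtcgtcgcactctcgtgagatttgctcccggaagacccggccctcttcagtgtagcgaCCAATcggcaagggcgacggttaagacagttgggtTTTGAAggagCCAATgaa
Kif11 (chr19:37376232-37376381, plus strand): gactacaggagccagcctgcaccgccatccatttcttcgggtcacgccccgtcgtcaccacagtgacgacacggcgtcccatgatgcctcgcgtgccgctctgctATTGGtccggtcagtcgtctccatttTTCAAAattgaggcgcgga
Ube2c (chr2:164769779-164769928, plus strand): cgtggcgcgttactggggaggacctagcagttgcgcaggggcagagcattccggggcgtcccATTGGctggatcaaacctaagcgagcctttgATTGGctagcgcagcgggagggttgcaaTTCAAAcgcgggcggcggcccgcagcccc
Mybl2 (chr2:163054485-163054634, plus strand): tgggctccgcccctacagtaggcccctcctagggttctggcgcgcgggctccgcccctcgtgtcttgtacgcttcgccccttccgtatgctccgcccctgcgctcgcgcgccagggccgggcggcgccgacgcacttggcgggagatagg
Pttg1 (chr11:43425982-43426131, minus strand): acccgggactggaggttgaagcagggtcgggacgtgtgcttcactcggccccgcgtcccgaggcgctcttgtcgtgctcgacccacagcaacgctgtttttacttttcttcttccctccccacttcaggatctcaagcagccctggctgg

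The 25 genes with both motifs had a median log2 fold change of -2.36 in the K-80003 group against TGF-beta, the 4 with TTTGAA alone -2.39, the 4 with CCAAT alone -2.30 and the 7 with neither -1.67. The difference between these classes was not tested, and the ranges of the classes overlapped. Bub1b holds both motifs and had a value of -0.69, whereas Nuf2 holds neither in this window and had a value of -2.82. Nusap1 and Birc5, also without either motif in the window, had values of -2.36 and -2.29.

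**Figure D3:**
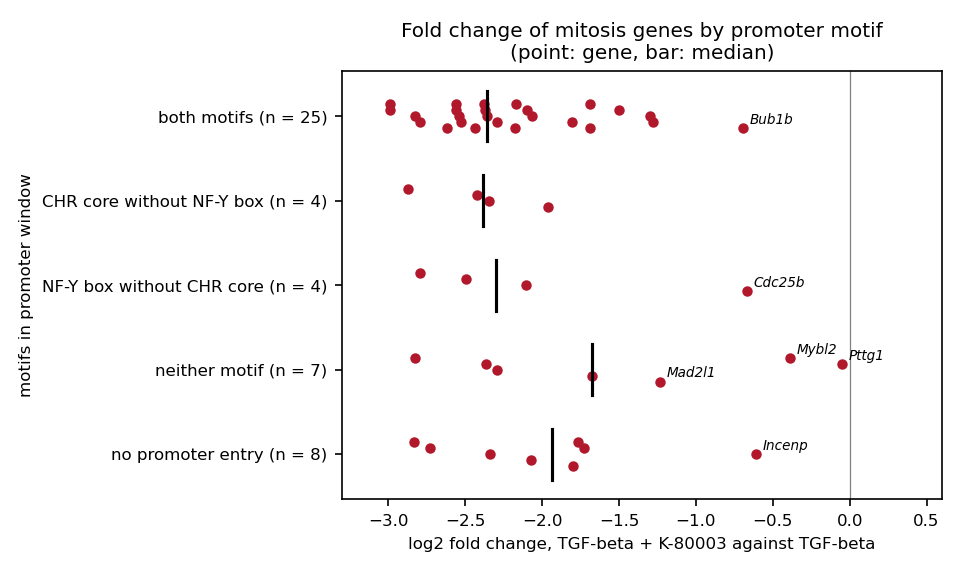
Log2 fold change in the K-80003 group against TGF-beta (x axis) of the 48 mitosis genes, 1 point a gene, grouped by whether the RefSeq promoter window holds the CHR core, the NF-Y box, both or neither; bars are medians. The medians are -2.36 for both motifs and -1.67 for neither, with the 2 values nearest to 0 (Pttg1 and Mybl2) among the 7 genes with neither.

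Among transcription factors and proliferation antigens, 3 of 4 were called lower in the K-80003 group against TGF-beta. Top2a, the topoisomerase that untangles sister chromatids, had 13.3 and 12.3 CPM in the K-80003 libraries, 69.6 and 78.1 CPM in the TGF-beta libraries and 104 and 103 CPM in the Control libraries. It fell 5.76-fold against TGF-beta (log2 -2.53 ± 0.15, SE, adjusted p = 0.000533 by edgeR's quasi-likelihood test) and had the smallest p of the 48 genes in this comparison. Mki67, whose product coats mitotic chromosomes, had 9.07 and 5.10 CPM in the K-80003 libraries, 27.4 and 56.4 CPM in the TGF-beta libraries and 90.1 and 46.0 CPM in the Control libraries. Its TGF-beta and Control libraries overlapped, and its replicates differed more than those of Top2a; its 5.89-fold lower level carried an SE of 0.50 and an adjusted p of 0.0256. Foxm1, the transcription factor that activates G2 and M phase genes, fell 3.40-fold (log2 -1.77 ± 0.23). Mybl2, which encodes B-MYB, its partner on the MuvB core, had a value of -0.39 ± 0.24 (adjusted p = 0.42); it was called lower in the K-80003 group against Control, at -1.28 ± 0.24 (adjusted p = 0.0144).

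Of the mitotic cyclins, CDK1 and the CDC25 phosphatases, 5 of 6 were called lower against TGF-beta. Ccna2 (cyclin A2) had 4.19 and 4.16 CPM in the K-80003 libraries, 30.2 and 29.5 CPM in the TGF-beta libraries and 29.9 and 39.0 CPM in the Control libraries. The K-80003 replicates were nearly equal, and the TGF-beta and Control ranges overlapped. Ccnb1 (cyclin B1), which drives entry into mitosis, had 2.10 and 1.52 CPM in the K-80003 libraries, 13.7 and 11.5 CPM in the TGF-beta libraries and 14.3 and 17.6 CPM in the Control libraries. Ccnb2 (cyclin B2) had 2.31 and 2.34 CPM in the K-80003 libraries, 13.8 and 11.4 CPM in the TGF-beta libraries and 13.8 and 19.7 CPM in the Control libraries. Cdk1, the kinase that these cyclins activate, had 6.13 and 7.15 CPM in the K-80003 libraries, 39.9 and 28.1 CPM in the TGF-beta libraries and 39.3 and 47.6 CPM in the Control libraries. All 4 genes were separated from TGF-beta by a clear gap, with fold differences of 7.14 for Ccna2, 6.93 for Ccnb1, 5.41 for Ccnb2 and 5.13 for Cdk1 and adjusted p-values between 0.000727 (Ccna2) and 0.00257 (Ccnb2) by edgeR's quasi-likelihood test. Of the phosphatases that remove the inhibitory phosphates of CDK1, Cdc25c was at -2.07 ± 0.36 (adjusted p = 0.0173) and Cdc25b at -0.67 ± 0.19 (adjusted p = 0.0823); the difference between them was not tested. Counted reads of a pseudogene copy summed to 51 for Ccnb1 (1029 for the gene) and 135 for Ccnb2 (1074 for the gene) over the 6 libraries, and how reads were shared between copies is not known.

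All 3 mitotic kinases of the Polo and Aurora families fell. Plk1, which acts at centrosomes, kinetochores and the midzone, had 1.99 and 3.57 CPM in the K-80003 libraries, 12.6 and 12.5 CPM in the TGF-beta libraries and 13.7 and 16.4 CPM in the Control libraries. Aurkb, the kinase of the chromosomal passenger complex, had 1.89 and 2.34 CPM in the K-80003 libraries, 11.2 and 10.2 CPM in the TGF-beta libraries and 11.9 and 11.5 CPM in the Control libraries. These 2 were 4.52-fold and 5.06-fold lower than in TGF-beta. Aurka, the spindle pole kinase, had 5.56 and 5.22 CPM in the K-80003 libraries, 12.9 and 13.6 CPM in the TGF-beta libraries and 10.7 and 12.7 CPM in the Control libraries, a 2.46-fold lower level (log2 -1.30 ± 0.18, adjusted p = 0.00733 by edgeR's quasi-likelihood test). Both TGF-beta libraries lay above both Control libraries for Aurka, though its value there, 0.18 ± 0.17, was not called.

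In the spindle checkpoint, 3 of 4 genes were called lower against TGF-beta. Ttk, the MPS1 kinase at the top of the checkpoint, had 1.05 and 1.05 CPM in the K-80003 libraries, 5.82 and 7.15 CPM in the TGF-beta libraries and 9.84 and 8.68 CPM in the Control libraries, and Bub1, the kinase that recruits the others to kinetochores, had a similar value (log2 -2.62 ± 0.24 and -2.49 ± 0.27 against TGF-beta). Mad2l1 (MAD2), which binds and holds CDC20, had 12.1 and 10.1 CPM in the K-80003 libraries, 29.4 and 22.8 CPM in the TGF-beta libraries and 26.6 and 26.9 CPM in the Control libraries, a smaller difference of -1.23 ± 0.19. Bub1b (BUBR1), another inhibitor of CDC20, had 12.2 and 14.8 CPM in the K-80003 libraries, 20.7 and 22.9 CPM in the TGF-beta libraries and 30.4 and 25.5 CPM in the Control libraries. The 3 groups did not overlap for Bub1b, and its value of -0.69 ± 0.18 against TGF-beta was not called (adjusted p = 0.0598, 95% interval -1.11 to -0.27); without the filter on low counts it was called. Against Control it was lower at -1.05 ± 0.18 (adjusted p = 0.0099, edgeR's quasi-likelihood test).

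Of the 3 chromosomal passenger subunits that hold Aurora B in place, 2 were called lower against TGF-beta. Birc5 (survivin) had 2.88 and 2.11 CPM in the K-80003 libraries, 14.6 and 9.99 CPM in the TGF-beta libraries and 14.2 and 23.7 CPM in the Control libraries. It fell 4.90-fold, with wide gaps between the replicates of each group, and Cdca8 (borealin) fell 2.83-fold. Incenp, the scaffold subunit, had 16.1 and 15 CPM in the K-80003 libraries, 22.6 and 24.9 CPM in the TGF-beta libraries and 27.1 and 31.4 CPM in the Control libraries. The groups did not overlap for Incenp, and its value of -0.61 ± 0.15 against TGF-beta was not called by edgeR's quasi-likelihood test (adjusted p = 0.0601, 95% interval -0.98 to -0.24), while -0.91 ± 0.15 against Control was (adjusted p = 0.0105).

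All 7 kinetochore and centromere genes fell against TGF-beta. The 4 subunits of the NDC80 complex, which grips the microtubule end, had log2 fold changes of -2.35 ± 0.22 for Ndc80, -2.82 ± 0.31 for Nuf2, -2.73 ± 0.41 for Spc24 and -1.81 ± 0.31 for Spc25 (SE). Ndc80 itself had 2.04 and 1.82 CPM in the K-80003 libraries, 11 and 8.75 CPM in the TGF-beta libraries and 11.7 and 12.4 CPM in the Control libraries. Spc25 had 4.14 and 4.34 CPM in the K-80003 libraries, 18.4 and 11.2 CPM in the TGF-beta libraries and 13.0 and 19.3 CPM in the Control libraries, with overlapping TGF-beta and Control ranges. Cenpe, a kinesin that carries chromosomes to the spindle equator, had 6.97 and 5.51 CPM in the K-80003 libraries, 21.4 and 32.4 CPM in the TGF-beta libraries and 30.6 and 25.5 CPM in the Control libraries, which was 4.30-fold lower than in TGF-beta. Cenpa, the histone H3 variant that marks centromeres, fell by 5.17-fold and Cenpf, a large kinetochore protein with the longest exonic length of the 48 genes, by 5.90-fold. Cenpf had the largest SE of the 48 genes against TGF-beta, 0.51, and the largest adjusted p among those called, 0.0265 by edgeR's quasi-likelihood test.

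All 8 kinesin motors fell. Kif11 (Eg5), which pushes spindle poles apart, had 2.57 and 2.05 CPM in the K-80003 libraries, 17.7 and 19.1 CPM in the TGF-beta libraries and 21.7 and 21.2 CPM in the Control libraries. At 7.93-fold lower than in TGF-beta (log2 -2.99 ± 0.19, adjusted p = 0.000587 by edgeR's quasi-likelihood test) it had the steepest fall of the 48 genes, next to Hmmr. Kif4, a chromokinesin, had 1.83 and 1.82 CPM in the K-80003 libraries, 12.7 and 13.3 CPM in the TGF-beta libraries and 16.1 and 11.2 CPM in the Control libraries. The level of Kif4 was 7.11-fold lower than in TGF-beta, and Kif2c (MCAK), which depolymerises microtubules at centromeres, was 7.33-fold lower. Kif20a (MKLP2), which brings the passenger complex to the midzone, had 5.92 and 4.28 CPM in the K-80003 libraries, 16.4 and 19.3 CPM in the TGF-beta libraries and 20.5 and 19.3 CPM in the Control libraries, or 3.49-fold lower. Kif22, another chromokinesin, had 6.34 and 8.32 CPM in the K-80003 libraries, 19.7 and 15.8 CPM in the TGF-beta libraries and 16.9 and 24.4 CPM in the Control libraries. It had the smallest fall of the motors at 2.43-fold (adjusted p = 0.0258). Kif15, Kif18b and Kif23 lay in between at 3.90-fold, 4.50-fold and 3.22-fold lower.

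The 4 other spindle proteins all fell. Tpx2, which activates Aurora A and nucleates spindle microtubules, had 10.9 and 10.2 CPM in the K-80003 libraries, 34.4 and 35.4 CPM in the TGF-beta libraries and 38.3 and 38.6 CPM in the Control libraries. Its replicates lay close together in each group, and its 3.31-fold lower level carried an SE of 0.14 on the log2 scale. Prc1, which bundles the central spindle, had 8.33 and 5.98 CPM in the K-80003 libraries, 26.0 and 34.0 CPM in the TGF-beta libraries and 36.0 and 36.6 CPM in the Control libraries. Nusap1, a microtubule stabiliser at chromosomes, had 2.36 and 3.11 CPM in the K-80003 libraries, 14.1 and 14 CPM in the TGF-beta libraries and 17.0 and 21.2 CPM in the Control libraries. Prc1 was 4.18-fold and Nusap1 5.14-fold lower than in TGF-beta, and Hmmr, a spindle pole protein and hyaluronan receptor, 7.92-fold lower.

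The 3 cytokinesis genes fell by like amounts. Anln (anillin), which organises the contractile ring, had 14.7 and 16.4 CPM in the K-80003 libraries, 79.2 and 87.6 CPM in the TGF-beta libraries and 95.3 and 81.7 CPM in the Control libraries. Ect2, the exchange factor that turns on RhoA at the division plane, had 3.88 and 3.63 CPM in the K-80003 libraries, 16.3 and 22.8 CPM in the TGF-beta libraries and 26.8 and 22.3 CPM in the Control libraries. Racgap1, which with Kif23 forms centralspindlin, had 5.76 and 5.51 CPM in the K-80003 libraries, 27.4 and 27.8 CPM in the TGF-beta libraries and 28.9 and 28.6 CPM in the Control libraries. For each of these genes the K-80003 libraries lay far below the rest, at 5.37-fold, 5.19-fold and 4.89-fold lower than in TGF-beta for Anln, Ect2 and Racgap1. The centralspindlin partner Kif23 was 3.22-fold lower (log2 -1.69 ± 0.21 against -2.29 ± 0.14 for Racgap1); this difference was not tested.

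At anaphase onset, 3 of 4 genes were called lower against TGF-beta, and the exception had the value nearest to 0 of the 48. Cdc20, the activator of the anaphase-promoting complex (APC/C), had 3.25 and 2.40 CPM in the K-80003 libraries, 18.7 and 14.4 CPM in the TGF-beta libraries and 19.4 and 21.8 CPM in the Control libraries. Ube2c, the ubiquitin-conjugating enzyme that works with this complex, had 2.2 and 2.46 CPM in the K-80003 libraries, 18.3 and 14.1 CPM in the TGF-beta libraries and 16 and 20.9 CPM in the Control libraries. Both were clearly separated from TGF-beta, at 5.83-fold and 6.94-fold lower, and Espl1 (separase), the protease that cuts cohesin, was 4.28-fold lower. Pttg1 (securin), the inhibitor of separase, had 24.8 and 28.1 CPM in the K-80003 libraries, 34.3 and 20.3 CPM in the TGF-beta libraries and 24.8 and 43.9 CPM in the Control libraries. Its 3 groups overlapped, and the value against TGF-beta was -0.05 ± 0.34 (adjusted p = 0.961 by edgeR's quasi-likelihood test, 95% interval -0.87 to 0.77), an interval that leaves out a fall as large as the median of the 48 genes. Without scaling beyond the library total, the value of Pttg1 turned to 0.05. Per length, Pttg1 was the most abundant of the 48 genes in each group, at a mean of 13.5 FPKM in the K-80003 group, 13.0 FPKM in TGF-beta and 17.7 FPKM in Control. The next most abundant in the K-80003 group were Incenp at 3.67 FPKM and Bub1b at 3.23 FPKM, while in TGF-beta they were Anln at 8.71 FPKM and Cdc20 at 8.41 FPKM and in Control Top2a at 11.8 FPKM and Cdc20 at 11.4 FPKM.

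Both measured subunits of condensin I, which compacts mitotic chromosomes, fell. Ncapg had 4.25 and 3.99 CPM in the K-80003 libraries, 14.1 and 12.5 CPM in the TGF-beta libraries and 17.4 and 16.2 CPM in the Control libraries. Ncaph had 6.92 and 3.75 CPM in the K-80003 libraries, 16.3 and 17.9 CPM in the TGF-beta libraries and 23.9 and 24.4 CPM in the Control libraries. The 2 falls were alike in size, at 3.23-fold and 3.19-fold, with SEs of 0.17 and 0.28 on the log2 scale. The other condensin I subunits, Ncapd2, Smc2 and Smc4, belong to the further mitosis genes described below. Their mean levels in the K-80003 and TGF-beta groups were 15.5 and 33.2 CPM for Ncapd2 and 23.1 and 46.4 CPM for Smc2. Smc4 averaged 62.4 and 96.0 CPM in the same order.

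**Figure D4:**
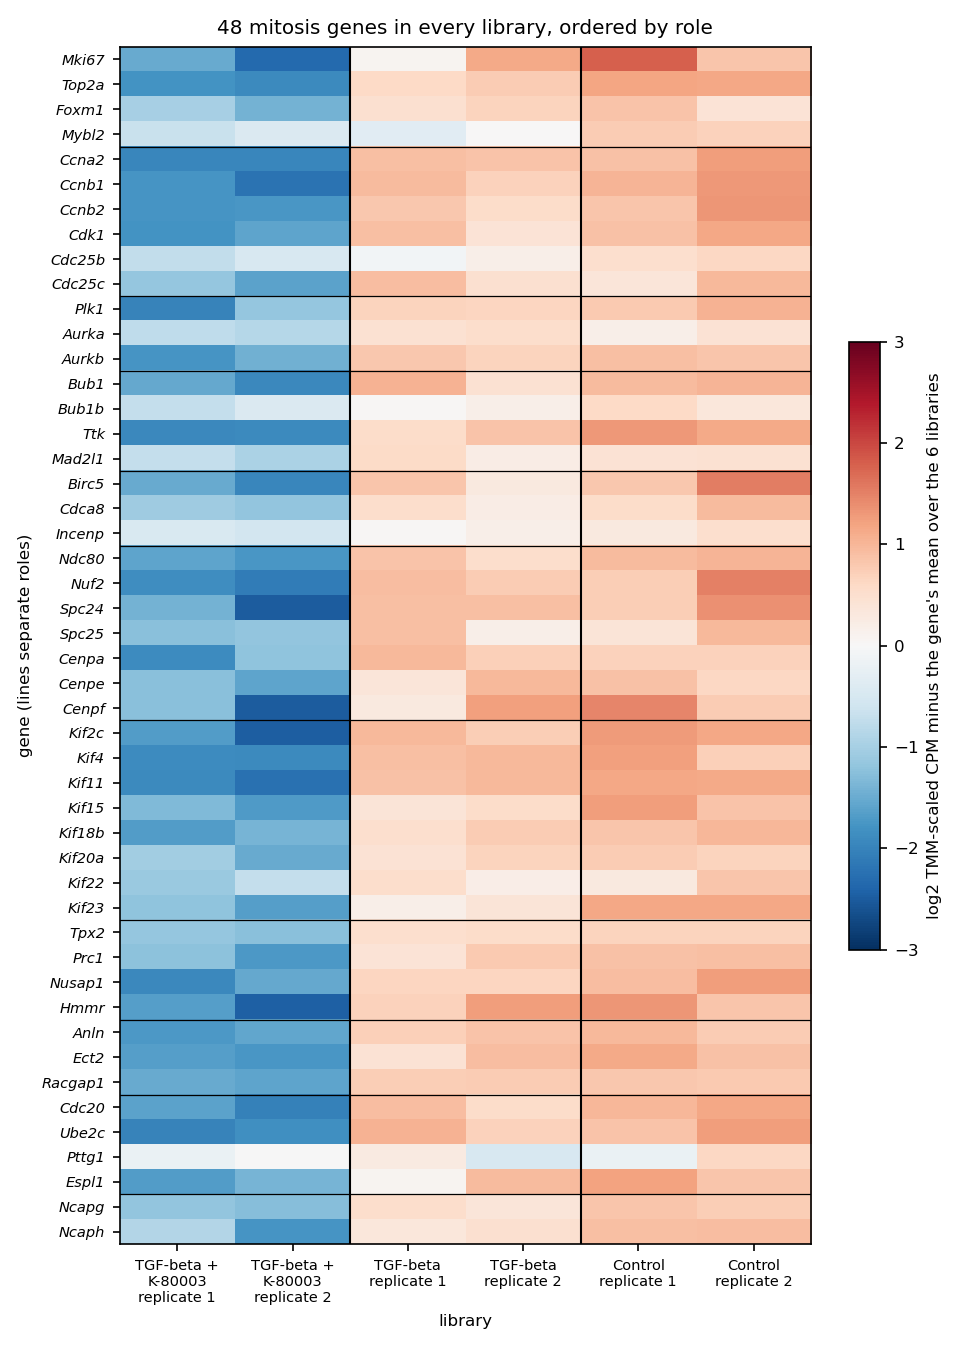
Log2 TMM-scaled CPM of the 48 mitosis genes (rows, ordered by role) in the 6 libraries (columns), each shown as the difference from the gene's mean over the 6 libraries. The 2 K-80003 columns are blue for nearly every gene, with Pttg1, Mybl2, Incenp and Bub1b the palest rows.

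Across the 48 genes, Spearman's rho of the log2 fold change against TGF-beta was 0.0569 with mean FPKM in TGF-beta, again from the same 4 libraries. A gene on the other strand with at least 30.3% of the member's own counts overlaps 9 of the 48: Exosc9 overlaps Ccna2, Spef1 overlaps Cdc25b, 9930104L06Rik overlaps Cdca8, Pdzd11 overlaps Kif4, Cdc23 overlaps Kif20a, Rccd1 overlaps Prc1, Oip5 overlaps Nusap1, Elovl1 overlaps Cdc20 and Lcorl overlaps Ncapg. These overlaps are of whole gene spans, and the shared exonic bases were not measured. The sources used here do not give the strand setting of the counting, so how reads in a shared stretch were assigned is not known. Of these 9 genes, 1 was called between the K-80003 and TGF-beta groups: Oip5, itself among the further mitosis genes described next, averaged 1.16 CPM in the K-80003 group and 3.54 CPM in TGF-beta (log2 -1.61 ± 0.37, adjusted p = 0.0443). The other 8 had values between -0.37 for Spef1 and 0.40 for Lcorl; Cdc23 averaged 59.9 CPM in the K-80003 group and 62.3 CPM in TGF-beta (log2 -0.06 ± 0.14).

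Other cell cycle genes were described by the same fit, from lists that hold none of the 48 genes. Of 80 further mitosis genes, 52 were called lower in the K-80003 group than in TGF-beta and 0 higher (7.32% and 2.78% of all genes). Their median log2 fold change was -1.39. Values were negative for 77 of the 80 and ranged from -3.25 to 0.62. Examples of the falls were Pimreg at -3.05 ± 0.22, Dlgap5, a spindle protein, at -2.45 ± 0.23, and Zwilch, a subunit that recruits dynein to kinetochores, at -1.80 ± 0.17. Zwint went the other way without being called, with 337 and 354 CPM in the K-80003 libraries and 240 and 209 CPM in the TGF-beta libraries. Of 37 S phase genes, 22 were lower and 0 higher, with a median of -1.06; Pclaf, a partner of the PCNA clamp, was at -2.69 ± 0.21, the replication licensing factors Cdc6 and Mcm5 both at -1.97, and Uhrf1, which maintains DNA methylation, at -1.89 ± 0.17. Of 17 APC/C genes (14 subunits, the E2 enzyme Ube2s, the coactivator Fzr1 and the inhibitor Fbxo5), 0 were called in either direction (2 with an unadjusted p under 0.05), with a median of -0.21, and 1 (Fbxo5) was lower against Control. The value of Fbxo5 against TGF-beta was -1.44 ± 0.40 (adjusted p = 0.0817), the most negative of the 17 by edgeR's quasi-likelihood test. For these 17 genes, the summed level was 1338 and 1305 CPM in the K-80003 libraries, 1396 and 1404 CPM in the TGF-beta libraries and 1292 and 1290 CPM in the Control libraries.

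The 18 genes of the DREAM, MuvB and E2F group had a median of -0.01 against TGF-beta, and 3 of them were lower and 0 higher. Those 3 were the E2F family members E2f1 at -1.50 ± 0.23, E2f7 at -2.75 ± 0.40 and E2f8 at -2.64 ± 0.40. The MuvB subunits Lin9 and Lin54 had values of -0.47 ± 0.19 (adjusted p = 0.194) and 0.17 ± 0.18 (adjusted p = 0.671) by edgeR's quasi-likelihood test. Of 12 genes (7 CDK inhibitors, 3 D cyclins and their kinases Cdk4 and Cdk6), 2 were lower against TGF-beta: Cdkn2c (p18) at -1.57 ± 0.21 and Ccnd3 (cyclin D3) at -0.76 ± 0.15. Against Control, 2 of the 12 were higher in the K-80003 group and 2 lower (5.54% and 11.7% of all genes), with values from -1.95 to 0.98. Cdkn1a (p21) was higher at 0.59 ± 0.15 and Cdkn2b (p15) at 0.98 ± 0.20, with adjusted p-values of 0.0449 and 0.0209 by edgeR's quasi-likelihood test. Ccnd1 (cyclin D1) was lower at -1.49 ± 0.23. In TGF-beta against Control, Ccnd1 was lower at -1.24 ± 0.22 (adjusted p = 0.0443), the 1 call in these 5 lists.

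**Figure D5:**
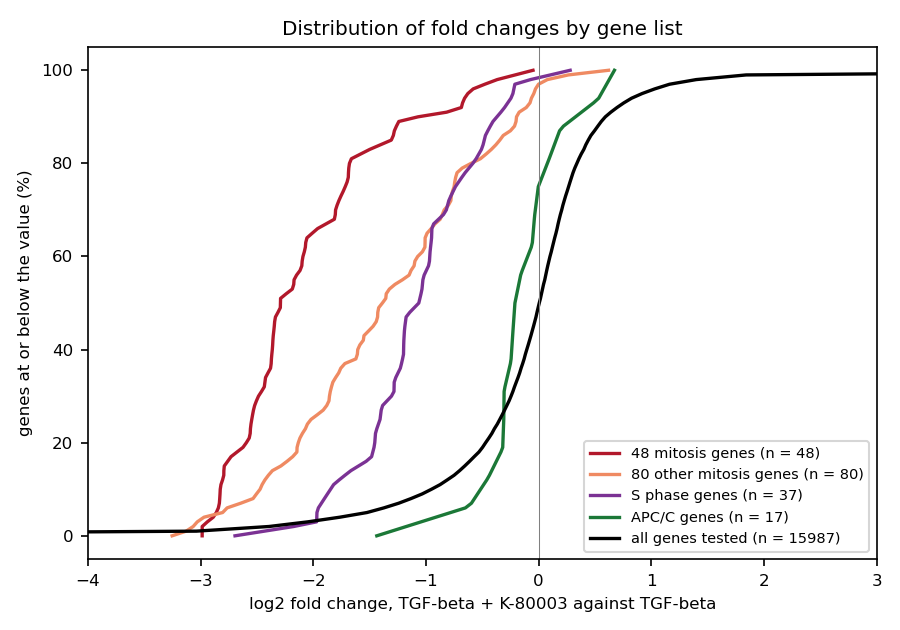
Cumulative share of genes (y axis, %) at or below each log2 fold change in the K-80003 group against TGF-beta (x axis) for the 48 mitosis genes, 80 other mitosis genes, 37 S phase genes, 17 APC/C genes and all 15987 genes tested. The curve of the 48 genes crosses 50% at -2.29, those of the other mitosis genes and the S phase genes at -1.39 and -1.06, that of the APC/C genes at -0.21 and that of all genes at 0.01.

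Markers of cell types moved between the same groups. Of 14 stellate cell markers, 10 were lower in the K-80003 group than in TGF-beta, and their summed level was 6852 and 5834 CPM in the K-80003 libraries, 14798 and 16249 CPM in the TGF-beta libraries and 15325 and 12931 CPM in the Control libraries. Of 8 tested macrophage markers 1 was lower, with sums of 30.6 and 36.0 CPM in the K-80003 libraries, 60.6 and 55.2 CPM in the TGF-beta libraries and 68.6 and 74.4 CPM in the Control libraries. Of 11 sinusoidal endothelial markers 3 were higher and 1 lower, with sums of 818.8 and 698.3 CPM in the K-80003 libraries, 399.4 and 523.3 CPM in the TGF-beta libraries and 793.9 and 595.4 CPM in the Control libraries. Cholangiocyte and mesothelial markers summed to between 94.5 and 167.1 CPM in the K-80003 libraries, between 123.2 and 188.4 CPM in the TGF-beta libraries and between 341.9 and 766.3 CPM in the Control libraries, with 0 of 6 (3 with an unadjusted p under 0.05) and 1 of 4 called against TGF-beta. The 10 hepatocyte markers summed to 4.45 CPM in K-80003 replicate 1 and 48.7 CPM in replicate 2, against between 7.71 and 10.4 CPM in the other 4 libraries, and 0 of the 4 tested were called (3 with an unadjusted p under 0.05). The part of these shifts in the fall of the mitosis genes was not tested. The 48 genes summed to 255.0 CPM in K-80003 replicate 1 and 242.6 CPM in replicate 2.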

How the data were processed

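Poly(A) RNA of 6 libraries of primary mouse hepatic stellate cells was sequenced, 2 libraries in each of 3 groups. The read counts that the authors deposited were whole numbers per gene and were not normalized. The deposited FPKM values were each gene's count over its exonic length and the summed counts of that library, within 0.005 for 100% of values. Per the submitters' processing notes, the tools were DESeq2, HTSeq 0.6.1, HISAT2 2.0.1, Cufflinks 2.2.1, cutadapt 1.9.1 and SAMtools 0.1.19, and the build was GRCm39; no role or order is attached. The annotation release and the strand setting of the counting are not given in the sources used here. No molecular identifiers are named in the labels.

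Counts were filtered with filterByExpr (minimum count 10, minimum total 15), which left 15987 of 56691 genes and removed 0.13% of the counts, scaled by TMM and tested with edgeR 4.0.16 (R 4.3.3), in a quasi-likelihood fit to all 6 libraries with the 3 groups and no block. The fit had 3 residual and 3.45 prior degrees of freedom. Each two-sided p was adjusted by Benjamini-Hochberg over all 15987 genes and called when under 0.05. Standard errors of log2 fold changes were derived from the F statistic. The procedure was also run on counts simulated with 1 common dispersion for all genes and no trend with gene length. That run does not cover the replicate differences along gene length seen in these libraries. Summed counts of 15646093 to 19004144 per library bound the precision. The 2 libraries of a group differed beyond sampling noise (chi-square over its degrees of freedom 19.9 in TGF-beta-K-80003, 45.4 in TGF-beta and 50.6 in Control). Each library was counted as 1 sample, but this spread does not show that the libraries came from separate animals or cultures.

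The 48 genes and the 12 other lists, of cell cycle genes and cell type markers, were chosen with earlier results of these data known, so their counts and medians are descriptions. Values in every library are given for the 2 members of each role with the highest mean FPKM and for members among the 12 smallest p-values of a comparison; other members are given by counts and single values, and list genes for a small p or a role. Alternatives were other scalings and filters, DESeq2 1.42.0, limma 3.58.1 on log2(FPKM + 1) and log2(FPKM + 0.1), fits to the compared groups only, a replicate block and fits without each library. Promoter sequences are RefSeq's on GRCm38.p6, and no coordinates were converted between builds.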

Additional observations from a re-analysis of the deposited data

How the results depend on the processing

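The count of the 48 genes lower in TGF-beta-K-80003 than in TGF-beta was 43; it was 43 under 3 other scalings, a minimum count of 50, DESeq2 and the 2 groups alone, 44 without a filter, 37 with limma on log2(FPKM + 1), 42 with log2(FPKM + 0.1), and 28 to 43 when 1 library was left out. Its median of -2.29 moved to -2.19 without scaling, -1.17 with limma on log2(FPKM + 1) and -1.98 on log2(FPKM + 0.1), where a pseudocount shrinks the fold of genes with low FPKM, and lay between -2.31 and -2.19 with 1 library left out. Against Control, the count of 47 lay between 38 and 48 in all alternatives, and the median of -2.53 moved to -1.40 and -2.30 with limma on log2(FPKM + 1) and log2(FPKM + 0.1). For TGF-beta against Control, the count of 0 became 1 without scaling, 2 without a filter, 1 with DESeq2 and 1 with limma on log2(FPKM + 1); the cause was not tested. Without scaling, the median of all genes shifted to 0.11 for TGF-beta-K-80003 against TGF-beta and -0.11 for TGF-beta against Control.

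With the replicate number as a block, the calls were 37 (TGF-beta-K-80003 against TGF-beta), 47 (TGF-beta-K-80003 against Control) and 0 (TGF-beta against Control). Differences between replicates correlated over all genes at -0.476 (TGF-beta-K-80003 with TGF-beta), 0.504 (TGF-beta-K-80003 with Control) and -0.636 (TGF-beta with Control). Equal numbers thus did not mark libraries that deviated alike in all 3 groups. Whether libraries were paired between groups is not stated in the labels. A block with the 2 TGF-beta numbers crossed, chosen after seeing the data, gave 46, 48 and 14 calls in the same order. The shares of all genes called with either block are not given here. These counts thus do not tell a change over all genes from one in the 48 genes.

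Of single genes, Pttg1 turned to 0.0521 (no scaling), 0.0929 (limma on log2(FPKM + 1)) and 0.103 (log2(FPKM + 0.1)) in TGF-beta-K-80003 against TGF-beta. With 1 library left out it lay between -0.417 and 0.388 there, and between -0.736 and 0.0723 against Control. In TGF-beta against Control, Cdc25c turned to -0.0352 (upper-quartile scaling), -0.102 (no scaling), -0.00238 (minimum count 50), -0.0414 (limma on log2(FPKM + 1)) and -0.0783 (log2(FPKM + 0.1)). There, leaving out 1 library turned the sign of 16 uncalled genes: Foxm1 (-0.276 to 0.163), Cdc25c (-0.249 to 0.354), Bub1 (-0.56 to 0.0635), Mad2l1 (-0.26 to 0.157), Nuf2 (-0.657 to 0.11), Spc24 (-0.475 to 0.152), Spc25 (-0.562 to 0.205), Cenpa (-0.0186 to 0.296), Cenpe (-0.375 to 0.175), Cenpf (-0.853 to 0.0608), Kif4 (-0.31 to 0.213), Kif22 (-0.455 to 0.0704), Hmmr (-0.385 to 0.181), Anln (-0.197 to 0.0297), Ube2c (-0.421 to 0.0144) and Pttg1 (-0.79 to 0.144). Over single genes and the 16 alternatives other than the crossed block, TGF-beta-K-80003 against TGF-beta lost a call 42 times and gained 1, TGF-beta-K-80003 against Control lost 19, and TGF-beta against Control gained 5. With 2 libraries a group, a lone library left by leaving out the other is assumed to vary like the other groups.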
